A study of Mus musculus with 6 samples.

Results

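Gpr98, now named Adgrv1, encodes a very large adhesion G protein-coupled receptor. Its circRNA were chosen as every junction that the deposited table types as circRNA and assigns to Gpr98, which gave 56 circRNA of 42381 in all. The gene was picked because its circular counts differed between the time points, so values between the time points are a description of the gene and no test is given for them. Mural granulosa cells, which form the lining of the follicle wall in the ovary, came from 6 wild-type CF-1 female mice. All of them were 21 days old when given 5 IU of equine chorionic gonadotropin (eCG, labelled PMSG), which stimulates follicle growth. The 0-h group held 3 mice killed 46 h after eCG alone. The 4-h post-hCG group held 3 mice that were also given human chorionic gonadotropin (hCG), which stands in for the LH surge, and were killed 4 h later. Each mouse gave 1 library, and the ovaries were primed with hormone in both groups, so no group stands for an unstimulated ovary.

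A circRNA forms when the splice donor of a downstream exon is spliced back onto the acceptor of an upstream exon, or of the same exon. The Gpr98 protein carries a long extracellular part built of calcium-binding Calx-beta repeats, followed by the membrane-spanning part of a receptor at its carboxy-terminal end. It is best known from the inner ear, where with whirlin and PDZD7 it forms the ankle links between the stereocilia of hair cells, and loss of the human gene causes a form of Usher syndrome. The gene lies on the minus strand of chromosome 13 from 81095068 to 81633154 (GRCm38, GENCODE M21). The long transcript, Adgrv1-201, has 90 exons. The short transcript Adgrv1-206 has 8 exons. It starts with an exon of its own from 81343102 to 81343315, inside the intron between exons 83 and 84 of the long transcript, and goes on with exons 84 to 90. A second short transcript, Adgrv1-214, starts at 81351626 in the same intron and has the same exons 84 to 90. In both short transcripts the annotated reading frame opens in exon 84.

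The sequences that define the main circRNA are the back-splice junctions, each shown 5′ to 3′ with the last 15 bases of the downstream exon in capitals and the opening 15 bases of the upstream exon in lower case (GRCm38, chromosome 13, minus strand).
exons 84 to 85: TATTCATGGTGACCTattttgttcctggca
exons 84 to 86: GAACCAACGCAGCAGattttgttcctggca
exons 84 to 87: TTCAATAGTCTGCAGattttgttcctggca
exons 45 to 85: TATTCATGGTGACCTtgccacctctataga
The junctions that begin at exon 84 share its acceptor, and the circRNA of exons 84 to 85 and of exons 45 to 85 share the donor of exon 85. Exon 84 runs from 81283356 to 81283472 (117 nt) and exon 85 from 81270744 to 81270922 (179 nt). Together they make a circle of 296 nt, coding in the long transcript. In the short transcripts the start codon, in capitals, lies near the end of exon 84 and is followed by exon 85.
start codon and exon 85: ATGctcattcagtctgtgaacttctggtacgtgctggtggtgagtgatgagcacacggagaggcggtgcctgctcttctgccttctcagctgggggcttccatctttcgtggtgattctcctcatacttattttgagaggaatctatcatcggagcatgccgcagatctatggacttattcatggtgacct
The introns around this pair of exons are the longest of the gene. The intron before exon 84 measured 90709 bp and the intron after exon 85 measured 87940 bp, ranks 1 and 2 among 89 introns whose median was 1928 bp.

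The 56 circRNA carried 712 back-splice reads over the 6 libraries. Every one of them began and ended at annotated exon edges of the long transcript, and their deposited exon numbers equalled its exon numbers in 56 of 56. They used 29 different upstream exons and 35 different downstream exons, held 1 to 43 exons (median 7.5), measured 158 to 8800 nt when spliced (median 1511.5 nt, taking every exon between the ends), and spanned 158 to 339544 bp of the genome. Reads were concentrated on few of them. The circRNA of exons 84 to 85 alone held 315 reads, 10 circRNA had 10 reads or more, 32 were read in a single library and 12 were a single read. Only exons 84 to 85 had reads in all 6 libraries. By time, 11 were read at 0-h only, 22 at 4-h post-hCG only and 23 at both. Gpr98 circRNA together gave 37 to 64 reads in the 0-h libraries and 145 to 225 in the 4-h post-hCG libraries, out of 119094 to 163145 back-splice reads per library at gene-naming junctions. At that depth a single read was worth 6.13 to 8.40 CPM (reads scaled to a common library size by their total), so a circRNA with no read in a library is not shown to be absent.

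**Figure D1:**
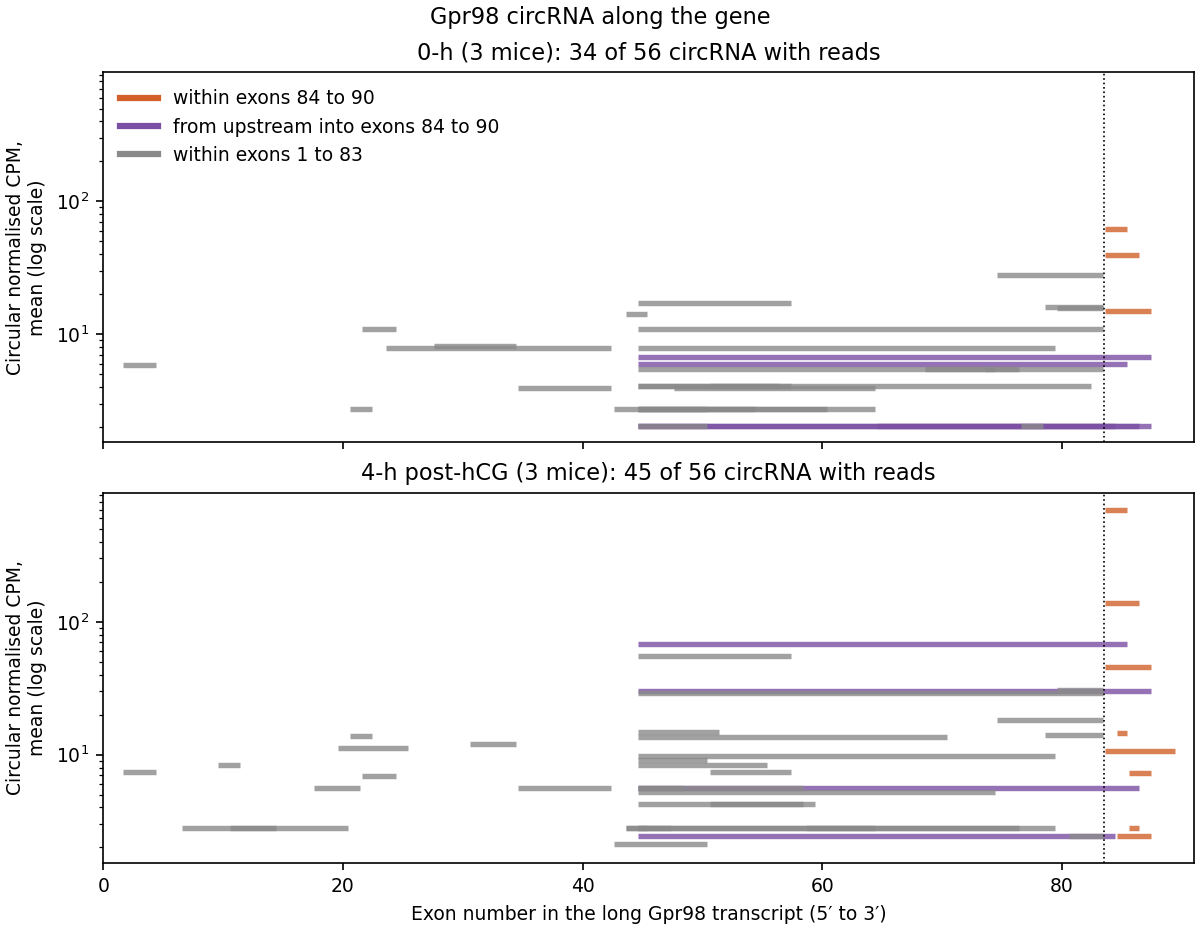
Each bar is 1 Gpr98 circRNA drawn from its upstream to its downstream exon (x axis, exon number in the long transcript), at its mean circular normalised CPM over 3 mice (y axis, log scale), for 0-h above and 4-h post-hCG below. The dotted line separates exons 1 to 83 from exons 84 to 90, and circRNA without reads at a time are not drawn. The circRNA of exons 84 to 85 stood at 62.3 at 0-h and 701 at 4-h post-hCG.

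The circRNA of exons 84 to 85 was the most read Gpr98 circRNA at 4-h post-hCG in each of the 3 libraries. It lay on chromosome 13 from 81270744 to 81283472. It had 8, 8 and 11 back-splice reads in the 0-h mice and 113, 77 and 98 in the 4-h post-hCG mice (replicates 1, 2 and 3). The lowest 4-h post-hCG library was thus far above the highest 0-h library. In CPM scaled by TMM factors (normalised CPM), its level was 62.3 ± 24.4 in the 0-h mice and 701 ± 134 in the 4-h post-hCG mice (SD, n = 3). The fitted difference was 11.4-fold, a log2 value of 3.52 (standard error 0.350). By mean level it moved from rank 1353 to rank 75 among 42344 circRNA with a gene name. Its log2 value was the third highest of the 1658 circRNA that had at least 100 CPM in 3 libraries. The CPM of this filter was taken over circRNA reads only, a smaller total, so a single read was worth more there than given above. Of these 1658, 1.21% were called (adjusted p no higher than 0.1 and a fold no lower than 1.5), 1.09% as higher and 0.121% as lower after hCG. Nothing is read from this background for a gene chosen on the contrast.

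The circRNA of exons 84 to 86, from 81182646 to 81283472 (454 nt), used the same acceptor with the donor of exon 86. It had 14, 0 and 4 reads at 0-h and 17, 16 and 23 at 4-h post-hCG, so that 14 of its 18 reads at 0-h came from replicate 1. Its level was 39.7 ± 43.5 normalised CPM in the 0-h mice and 139 ± 47.4 in the 4-h post-hCG mice (SD, n = 3). The groups did not overlap, yet the SD at 0-h was as large as the mean. The fitted log2 value was 1.78 (standard error 0.595) with all libraries, 3.19 without 0-h replicate 1 and 1.16 without 0-h replicate 2. Exons 84 to 87, from 81155155 to 81283472, had 6, 0 and 1 reads at 0-h and 7, 0 and 11 at 4-h post-hCG, and the groups overlapped. Exons 84 to 89, from 81103219, had 5 reads, all in 4-h post-hCG replicate 1. An antisense gene, 9330111N05Rik, overlaps exons 88 to 90, and it is not known here whether the counting used strand.

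A second acceptor was used often. Exon 45, which ends upstream at 81494698 and encodes part of the extracellular region, was the upstream exon of 21 circRNA with 152 reads, against 419 reads on the 4 circRNA that begin at exon 84. Exons 45 to 85, a circRNA that reaches from this acceptor to the donor of exon 85, had 1, 2 and 0 reads at 0-h and 22, 2 and 6 at 4-h post-hCG. Most of its 4-h post-hCG reads came from replicate 1. Its groups did not overlap in normalised CPM, although replicate 2 stood at 14.5 at 4-h post-hCG against 11.8 at 0-h, where either is 2 reads. Exons 45 to 57 had 0, 6 and 2 reads at 0-h and 20, 2 and 3 at 4-h post-hCG, with 20 of the 25 later reads again in replicate 1. Summed, circRNA that begin at exon 45 stood at 78.1 ± 5.45 normalised CPM in the 0-h mice and 267 ± 126 in the 4-h post-hCG mice (SD, n = 3), with replicate 1 at 410.1 and the other mice at 173 and 218. Sums over several circRNA were scaled by the factors of the fit per gene name, so they differ by a few percent from sums of the single values.

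The remaining circRNA with 10 reads or more ended at exon 83, the last exon upstream of the long intron, or reached from exon 45 to exon 87. Exons 75 to 83 had 9, 2 and 2 reads at 0-h and 2, 0 and 5 at 4-h post-hCG. Exons 80 to 83 had 0, 8 and 0 reads and 6, 4 and 3. Exons 79 to 83 had 4, 4 and 0 reads and 0, 0 and 5, exons 45 to 83 had 4, 0 and 1 reads and 6, 1 and 5, and exons 45 to 87 had 0, 2 and 1 reads and 5, 8 and 0. In each of these 5 the groups overlapped. Over all members, 3 had every 4-h post-hCG library above every 0-h library (exons 84 to 85, 84 to 86 and 45 to 85) and 0 had every one below, where 1.41% of all circRNA with a gene name, and 6.39% of the 1658 abundant ones, had every 4-h post-hCG library above. None of the 15 circRNA that begin upstream of exon 45 and end by exon 83 reached 10 reads. They had 26 reads at 0-h and 33 at 4-h post-hCG in all.

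**Figure D2:**
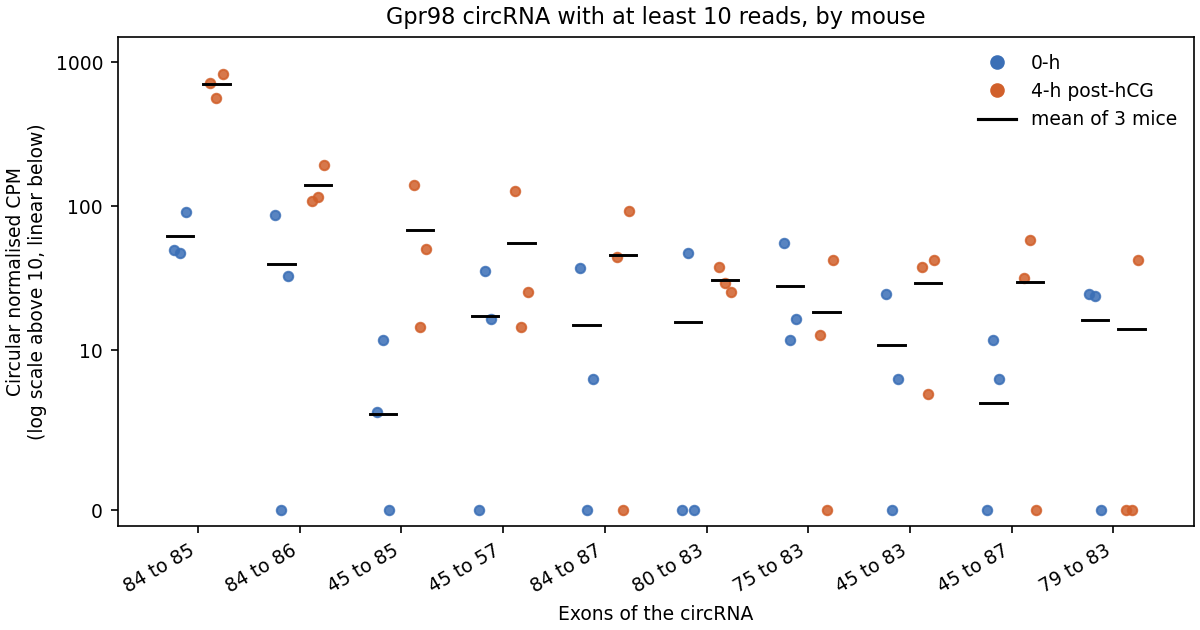
Circular normalised CPM (y axis, log scale above 10 and linear below) of the 10 Gpr98 circRNA with at least 10 reads, by their exons (x axis), with 1 point per mouse and a bar at the mean of 3 mice. The points of exons 84 to 85 lie between 47.3 and 90.4 at 0-h and between 559.8 and 826 at 4-h post-hCG, while those of 7 of the 10 circRNA overlap between the times.

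Summed by part of the gene, a division made after the values were seen, circRNA within exons 84 to 90 stood at 175, 48.2 and 133 normalised CPM in the 0-h mice and at 869, 744 and 1117 in the 4-h post-hCG mice. The means were 119 ± 64.6 and 910.3 ± 190 (SD, n = 3), a ratio of 7.67. There were 8 such circRNA with 430 of the 712 reads. The 5 circRNA that reach from an upstream exon into exons 84 to 90 stood at 25.0, 24.1 and 8.32 at 0-h and at 165, 79.5 and 67.2 at 4-h post-hCG. The 43 circRNA within exons 1 to 83 stood at 199.9, 235 and 166 at 0-h and at 343, 224 and 412 at 4-h post-hCG, where the groups overlapped and the ratio of means was 1.63. All Gpr98 circRNA together stood at 338 ± 53.2 and 1340.4 ± 276 (SD, n = 3), a fitted log2 value of 1.98 (standard error 0.220). Of the 1604 gene names whose summed circular reads were tested, 1.37% were called, 1.18% as higher and 0.187% as lower after hCG, and again nothing is read from this for Gpr98. Without exons 84 to 85 the sum stood at 275 ± 68.1 and 649.9 ± 144. In bulk RNA of this kind, more cells that carry a transcript and more transcript per cell cannot be told apart.

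**Figure D3:**
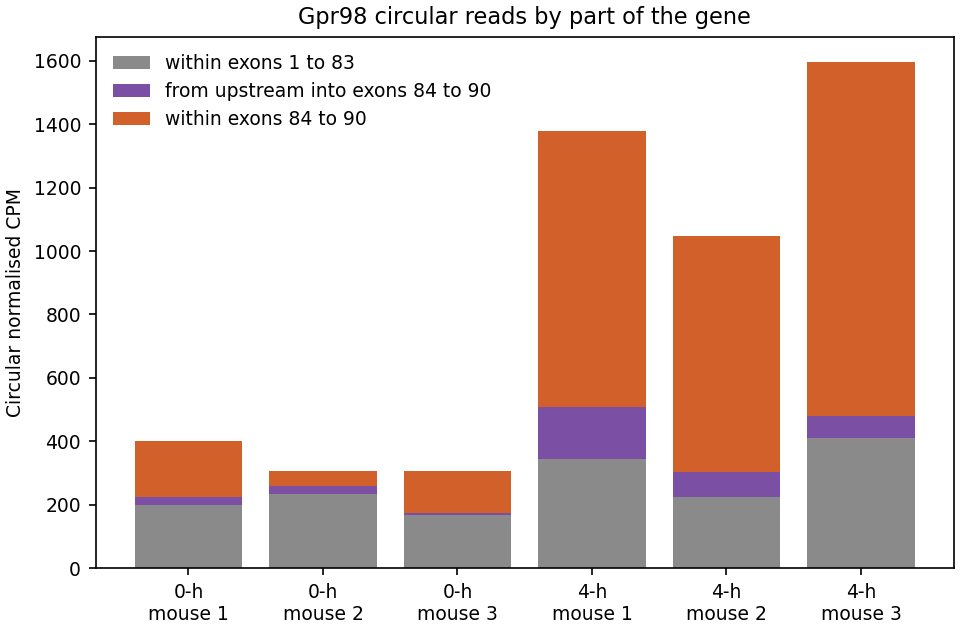
Stacked bars give the circular normalised CPM of Gpr98 in each of the 6 mice (y axis from 0), divided into circRNA within exons 1 to 83, from an upstream exon into exons 84 to 90, and within exons 84 to 90. The part within exons 84 to 90 spans 48.2 to 175 in the 0-h mice and 744 to 1117 in the 4-h post-hCG mice, and that within exons 1 to 83 spans 166 to 235 and 224 to 412.

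Exons 84 to 85 held 12.5%, 15.7% and 29.7% of the Gpr98 circular reads in the 0-h mice and 50.2%, 53.1% and 51.6% in the 4-h post-hCG mice. The mean share was 19.3 ± 9.17% in the 0-h mice and 51.6 ± 1.44% in the 4-h post-hCG mice (SD, n = 3), a difference of 32.3 percentage points. The 95% exact (Clopper-Pearson) interval of 0-h replicate 3 ran from 15.9% to 47.0% and those at 4-h post-hCG began at 43.5%, 44.6% and 44.2%, so these intervals, which cover counting error only, met at their ends. The share of exons 84 to 86 was 10.9 ± 10.9% and 10.2 ± 2.38%. It was 0 of the 51 reads of 0-h replicate 2, an interval up to 6.98%. The share of exons 75 to 83 was 7.80 ± 5.48% and 1.17 ± 1.34%, and the shares of the other 7 circRNA with 10 reads or more overlapped between the times.

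Each junction also has a linear count. At the junction of exons 84 to 85 it was 33, 31 and 31 at 0-h and 547, 410 and 422 at 4-h post-hCG, a fitted log2 value of 3.96 (standard error 0.201). At the junction of exons 84 to 86 it was 34, 33 and 41 and then 568, 413 and 366. All 8 circRNA within exons 84 to 90 had linear log2 values between 3.43 and 4.28, and the 5 that reach into these exons from upstream had values between 2.13 and 2.66. The 43 within exons 1 to 83 had values between -0.39 and 0.95, with a median of 0.46. The linear counts of 35 of the 56 junctions did not overlap between the times, all of them higher at 4-h post-hCG. These were 8 of 8, 5 of 5 and 22 of 43 in the 3 divisions. Of 40108 circRNA junctions of the whole series, 20.6% were higher in this way. Junctions that share an end seemed to share part of their linear count, so the 35 are not independent and nothing is read from this share. The 35 include all 21 junctions that begin at exon 45, and 0 of the 15 that begin upstream of it and end by exon 83. Which junction stands for the gene therefore set its linear value. It was 3.62 (standard error 0.203) for the junction with the highest linear count, exon 85 alone, and 0.44 (standard error 0.215) for the junction with the median count.

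The linear counts of Gpr98 could be resolved into exon edges. This used 64 junctions of the gene that share ends, typed circRNA or not, with 54 ends among them. Each linear count equalled a value for its upstream end plus a value for its downstream end, with a largest departure of 0.515 counts. A junction with an end that no other junction uses fits without departure, so only junctions with both ends shared could depart. The division leaves a constant between the kinds of end undecided, by up to 0.459 counts either way in a 0-h library and 5.08 in a 4-h post-hCG library. The acceptor edge of exon 84 had values of 7.07, 13 and 16 at 0-h and 253, 186 and 162 at 4-h post-hCG. The donor edge of exon 85 had 26.1, 18 and 15.5 and then 294, 223 and 260. The donor edge of exon 83, across the long intron from exon 84, had 9.59, 10 and 9.62 and then 18.5, 17.1 and 11. The acceptor edge of exon 45 had 31.4, 34 and 31.4 and then 52.5, 64.9 and 30. Levels at 4-h post-hCG were then set over those at 0-h in normalised CPM. The 9 resolved edges in exons 84 to 89 were 10.5 to 29.4 times as high (median 10.9). The 29 edges in exons 43 to 83 were 0.873 to 2.22 times as high (median 1.52). The 29.4 was the donor edge of exon 89, with values of 3.94, 1 and 1.26 at 0-h, near the floor. The next highest was 17.5, at the acceptor edge of exon 84. Exon 89 also lies where the antisense gene 9330111N05Rik overlaps, and it is not known here whether the counting used strand. At 0-h the mean level of the edges in exons 84 to 89 was 0.636, 0.515 and 0.510 times that of the upstream edges in the 3 mice, and at 4-h post-hCG it was 4.99, 4.45 and 4.21 times. The mean over these edges thus lay below the upstream mean in all 0-h mice and above it in all 4-h post-hCG mice, while single edges of either division overlapped.

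**Figure D4:**
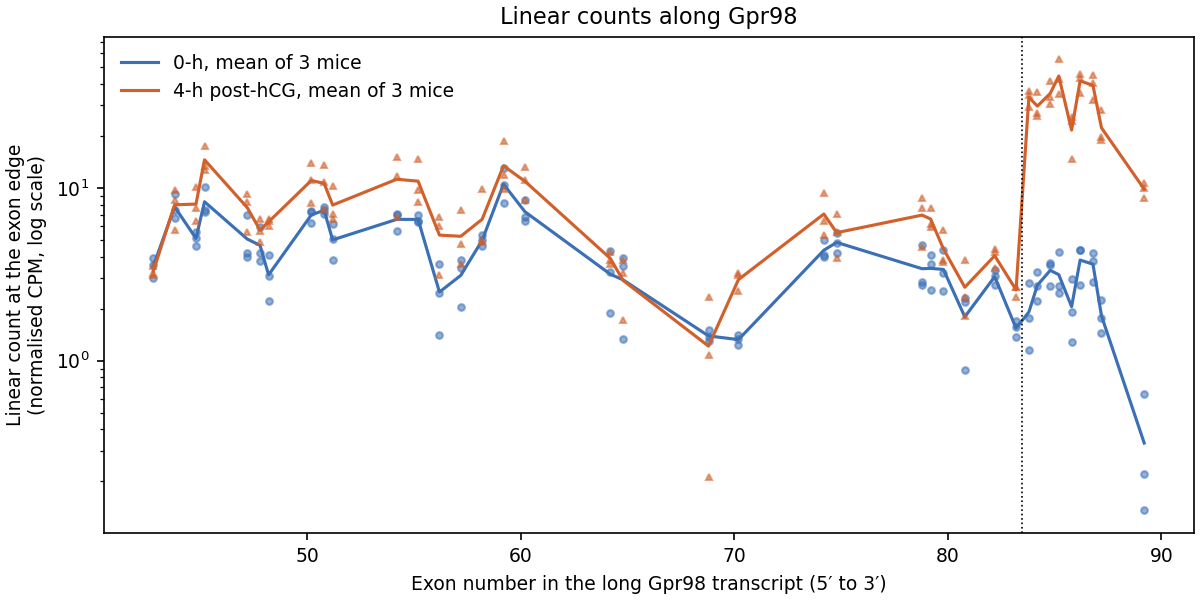
Linear counts resolved to exon edges (y axis, normalised CPM, log scale) against exon number in the long Gpr98 transcript (x axis), with 1 point per mouse and lines through the means of 3 mice. Upstream of the dotted line at exon 84 the lines of 0-h and 4-h post-hCG lie within 0.873 to 2.22 times of each other. Downstream they lie 10.5 to 29.4 times apart. The 29.4 is the donor edge of exon 89, whose counts at 0-h were 1 to 3.94, near the floor.

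The intron between exons 83 and 84, where the short transcripts begin, also carried linear counts. Both junctions given here were picked as those with the highest linear count that have neither end in an exon of the long transcript. The one that ends inside the opening exon of Adgrv1-206 (81342876 to 81343124, not typed circRNA) had linear counts of 0, 3 and 2 at 0-h and 95, 94 and 99 at 4-h post-hCG. The one that ends 130 bases before the annotated start of Adgrv1-206 (81339736 to 81343445) had 2, 1 and 3 and then 89, 87 and 55. Picking by the highest count favours junctions that are high at one time, so nothing is read from their separation. Linear counts in an intron can also come from unspliced RNA, which was not tested.

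The genome sequence before the annotated start of Adgrv1-206 is shown because a transcript without exons 1 to 83 is annotated to start at its end. The junction end 130 bases before the start lies inside this window. That junction was picked by its highest linear count, so its difference between the times is no ground for the choice of window. The window is chr13:81343316-81343565 (GRCm38, minus strand), and the capitals mark the only match to the motifs searched.
upstream of Adgrv1-206: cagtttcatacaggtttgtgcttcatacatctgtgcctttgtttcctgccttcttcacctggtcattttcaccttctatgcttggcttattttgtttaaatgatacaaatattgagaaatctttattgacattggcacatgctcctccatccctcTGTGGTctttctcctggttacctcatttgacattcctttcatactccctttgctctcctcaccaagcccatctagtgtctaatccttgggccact
Both strands were searched for 9 motifs. The RUNX motif TGTGGT matched once, and 14% of 32851 windows of 250 bases before RefSeq gene starts (GRCm38.p6) held it. No match was found to the cAMP response element TGACGTCA (in 1.55% of windows) or its part TGACG (17.8%), which overlap each other, to the AP-1 motif TGANTCA (6.75%), to AAGGTCA of the NR5A receptors (4.08%), to the GATA motif AGATAA (9.99%), to the TATA box TATAAA (12.4%), to the GC box GGGCGG (32.7%), or to the progesterone receptor motif (0.387%). The window before the start of the long transcript also held TGTGGT once and none of the others. No window is given for the start of the other short transcript, Adgrv1-214.

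Circular reads were set against the linear count of the same junction. For exons 84 to 85 there were 0.242, 0.258 and 0.355 circular reads per linear count at 0-h and 0.207, 0.188 and 0.232 at 4-h post-hCG. Each 4-h post-hCG value was below each 0-h value, with the nearest at 0.232 and 0.242. With circular and linear columns scaled together, the log2 ratio was 0.99 (standard error 0.387) at 0-h and 0.59 (standard error 0.206) at 4-h post-hCG, beside medians of -0.05 and -0.03 over the 1658 circRNA. The change was -0.40 (standard error 0.425), with an interval of 1.96 standard errors from -1.23 to 0.44, given as a description. For exons 84 to 86 there were 0.412, 0 and 0.0976 circular reads per linear count at 0-h and 0.0299, 0.0387 and 0.0628 at 4-h post-hCG, and the groups overlapped. The change of the log2 ratio was -1.92 (standard error 0.653) with all libraries and -0.38 without 0-h replicate 1, which held most of the 0-h reads. Since a linear count behaved as a sum over both junction ends, these are not ratios of molecules.

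Other adhesion receptors differed in direction. In linear counts, where the junction with the highest count stands for a gene name, 8 of 14 adhesion receptor entries other than Gpr98 could be tested. By edgeR with Benjamini-Hochberg adjustment, 3 rose and 1 fell, beside 13% and 12.8% of the 6956 gene names tested, (25.8% in either direction), with a median log2 value of 0.08 beside -0.01 over all. Summed over the list, linear levels were 1085 to 1112 CPM in the 0-h mice and 1665 to 2375 CPM in the 4-h post-hCG mice. Gpr116, a receptor that controls surfactant in the lung, had linear counts of 90, 84 and 91 at 0-h and 912, 505 and 744 at 4-h post-hCG, 8.89-fold higher (log2 3.15, standard error 0.222, edgeR adjusted p = 1.63e-10). The groups did not overlap. The latrophilin Lphn2, a receptor of cell contacts, rose 3.63-fold (edgeR adjusted p = 2.46e-07). Gpr125 rose 1.89-fold (edgeR adjusted p = 2.65e-05), and its circular reads had a log2 value of 0.89 (edgeR adjusted p = 0.369). Lphn1 fell by 0.83 on the log2 scale (edgeR adjusted p = 0.00128). Cd97, Celsr1, Emr1 and Lphn3 did not pass, with log2 values from -1.06 to 0.14.

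Of 13 symbols of the Usher and ankle-link complex, 5 had a circRNA and 3 could be tested in linear counts. The scaffold Whrn (whirlin) had counts of 11, 14 and 9 at 0-h and 21, 21 and 19 at 4-h post-hCG, a log2 value of 0.95 (standard error 0.395, edgeR adjusted p = 0.0777), and did not pass with the median junction. The motor Myo7a fell by 0.99 on the log2 scale (edgeR adjusted p = 0.00552), and Vezt, an adherens junction protein, had -0.38 (edgeR adjusted p = 0.182). Pcdh15, a cadherin of the hair bundle, was too low to test. Among Calx-beta repeat proteins, the matrix protein Fras1 rose 3.99-fold (edgeR adjusted p = 1.57e-06) with the highest junction and had a log2 value of 0.44 with the median one, and the sodium-calcium exchanger Slc8a1 had -0.12 (edgeR adjusted p = 0.599). Of 19 G protein and cAMP entries tested, 4 rose and 3 fell, beside the 13% and 12.8% of all gene names. Gnas, the stimulatory G protein subunit, rose 1.96-fold (edgeR adjusted p = 1.33e-05) and Prkar1a, a regulatory subunit of protein kinase A, 2.14-fold (edgeR adjusted p = 2.46e-06). The inhibitory subunits Gnai1 and Gnai3 rose 3.16-fold and 1.78-fold (edgeR adjusted p = 0.00221 and 0.00527). The adenylate cyclase Adcy9 fell to 0.380 times its 0-h level (edgeR adjusted p = 1.92e-06), and its entry shared with Gm6142 also fell. Adcy3 fell by 0.63 on the log2 scale (edgeR adjusted p = 0.0281).

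Neighbours of Gpr98 on chromosome 13 moved in different ways. The nearest gene names with a circRNA downstream of Gpr98 were Arrdc3, Fam172a and 2210408I21Rik, and upstream they were Polr3g, Cetn3 and Mef2c. Measured between circRNA ends, Arrdc3, Fam172a and 2210408I21Rik lay 214, 3097 and 3769 kb from Gpr98. Polr3g, Cetn3 and Mef2c lay 86.8, 189 and 2030 kb from it. Arrdc3, an arrestin-like protein that sorts membrane receptors, had linear counts of 189, 252 and 174 at 0-h and 721, 640 and 596 at 4-h post-hCG, 3.47-fold higher (edgeR adjusted p = 6.01e-09). Polr3g, a subunit of RNA polymerase III, had a log2 value of -0.15 (standard error 0.311, edgeR adjusted p = 0.751), and Cetn3, a centrosome protein, -0.37 (edgeR adjusted p = 0.385). Mef2c, a transcription factor further upstream, fell by 1.32 on the log2 scale (edgeR adjusted p = 0.00288). Fam172a had -0.51 (edgeR adjusted p = 0.102) and 2210408I21Rik -0.19 (edgeR adjusted p = 0.686). Of their circRNA, only the sum of 2210408I21Rik was read enough to test (log2 value 0.00, edgeR adjusted p = 0.999).

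**Figure D5:**
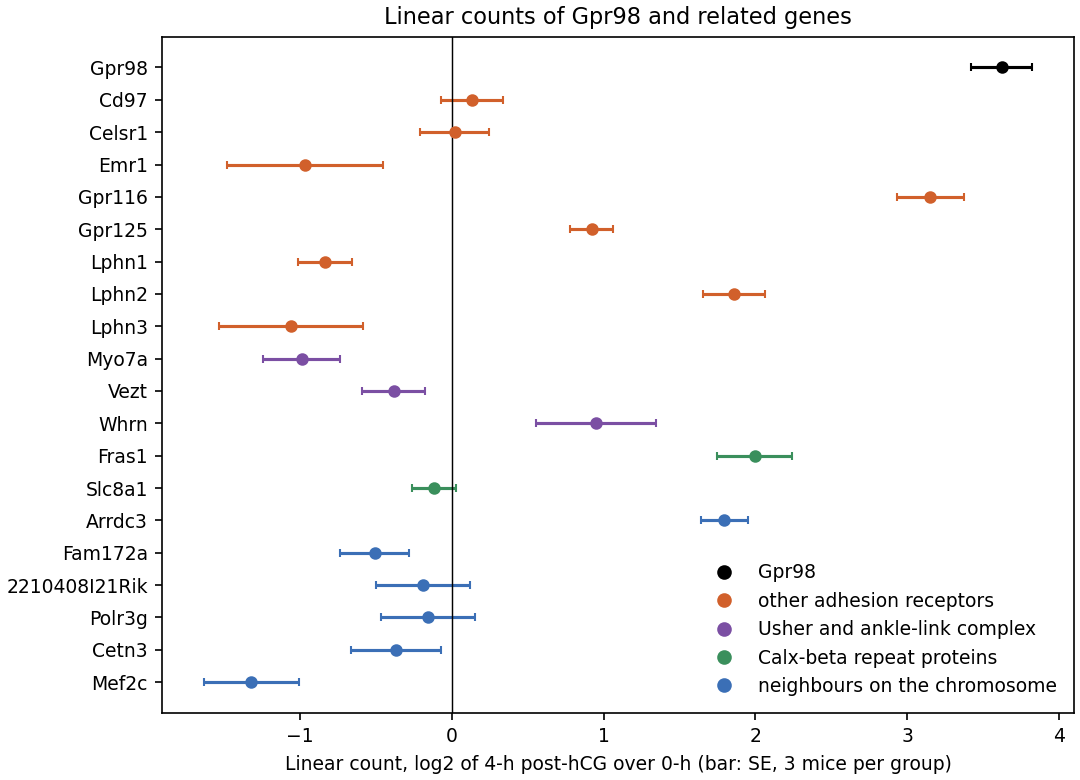
Linear log2 value of 4-h post-hCG over 0-h (x axis, with its standard error, 3 mice per group) for Gpr98, other adhesion receptors, Usher and ankle-link genes, Calx-beta repeat proteins and the neighbours on chromosome 13. With the highest junction of each gene, Gpr98 stands at 3.62 and Gpr116 at 3.15, while Mef2c lies lowest at -1.32. With the median junction, which is not drawn, Gpr98 stood at 0.44 and Gpr116 at 2.84.

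The gene names whose summed circular reads had the profile most like that of Gpr98 over the 6 libraries were Pcsk5, Vcan, Tead1, Bmper and Slc7a8, with a root mean square difference of centred log2 CPM of 0.175 to 0.468 among 1603 gene names. Pcsk5, a proprotein convertase, had 32, 23 and 16 circular reads at 0-h and 94, 90 and 93 at 4-h post-hCG. Vcan, the matrix proteoglycan versican, had 39, 41 and 31 and then 177, 64 and 154, with the lowest 4-h post-hCG value in replicate 2, as for Gpr98. By linear counts the nearest were Slc23a2, a vitamin C transporter, Plk2, Acsl4, Kcnk10 and Slc7a8 (0.160 to 0.207 among 6955 gene names). Here the junction with the highest linear count stood for each gene name, Gpr98 included. Kcnk10 had linear counts of 0, 0 and 0 at 0-h and 23, 15 and 20 at 4-h post-hCG. Its fitted linear log2 value was 7.35, against 3.62 for Gpr98. The profiles used a prior count of 2, which shrinks a change from no counts, so nothing is read from the place of Kcnk10. These profiles share the same libraries and the same step between the times.

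Markers of the tissue stood as follows in linear counts. Runx2, Esr2 and Nlrp5 each had an entry of their own and an entry shared with another gene name. Entries are thus not all separate genes, and the sums take in both. Of 12 tested entries of genes known to respond to hCG, 11 rose, where 13% of the 6956 gene names rose and 12.8% fell. Of 10 granulosa cell entries, whose sum was 8829 to 11515 CPM in the 0-h mice and 8748 to 9181 in the 4-h post-hCG mice, 1 rose and 5 fell. Of 4 oocyte, 4 theca and stroma, 4 leukocyte and 1 endothelial entries tested, 0 passed. Theca and stroma entries summed to 1251 to 1939 CPM in the 0-h mice and 1286 to 1528 in the 4-h post-hCG mice. Leukocyte entries summed to 33.8 to 61.0 and 38.9 to 41.3 CPM, and oocyte entries to 246 to 286 and 261 to 344. Endothelial entries summed to 14.6 to 22.9 and 13.8 to 33.2 CPM. The erythrocyte entries Alas2 and Slc4a1 both rose, and summed to 248 to 305 and 240.0 to 706 CPM. Their part in the Gpr98 values was not tested.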

How the data were processed

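Total stranded RNA of 6 libraries was sequenced as paired ends. Per the methods of the paper and the submitters' notes, reads were checked with FastQC, trimmed with cutadapt and aligned to GRCm38 with TopHat, and CIRCexplorer found back splices. The authors deposited raw counts of back-splice reads and linear counts per junction and library. The step behind the linear counts is unknown here. A second table with the authors' fold changes and p-values was not used. The 56 circRNA and all gene lists were chosen with earlier results of these data known.

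TMM factors and the edgeR 4.0.16 quasi-likelihood test (R 4.3.3) were applied, with p-values adjusted after Benjamini and Hochberg over all features, to 1658 circRNA with at least 100 CPM of circRNA reads in 3 libraries, to circular reads summed per gene name (1604) and to linear counts per gene name (6956). The library size of circular counts was the reads on junctions that name a gene (junctions without a name held 15.6% to 18.9%). Calls needed an adjusted p no higher than 0.1 and a fold no lower than 1.5. Genes named are Gpr98 circRNA with at least 10 reads, list members that passed or are adhesion, Usher or neighbouring genes, the 3 nearest gene names with a circRNA on each side, and the 5 nearest profiles. Of the G protein list, Calx-beta list and markers, only some are named. Profiles used log2 CPM with a prior count of 2. Each mouse was a separate animal with 1 library. The tests were checked on simulated counts with 200 features changed 8-fold, of which 96% were recovered for circRNA, 100% for circular gene sums and 100% for linear counts. Of the calls, 5.88% were false for circRNA, 6.54% for circular gene sums and 6.54% for linear counts. The simulated spread between replicates was a fixed value, not estimated from these data, and was the same for every feature of a kind. Recovery of features that vary more between mice is thus not known. Smaller changes were not simulated, so recovery near the 1.5-fold limit is not known. Standard errors came from the fold and the F statistic. DESeq2 1.42.0, RLE factors, other filters and library sizes, left-out mice and a replicate block were alternatives. Exons came from GENCODE M21 and sequences from the RefSeq genome GRCm38.p6. Python 3.11.15 drew the figures. A list member is not reported here.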

Additional observations from a re-analysis of the deposited data

Results flagged for a closer look

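Back-splice reads at junctions that name Gpr98 without being typed circRNA were left out of the main comparisons of circular levels. They entered only the library size and the alternative with junctions of any type. In that alternative the summed circular reads of Gpr98 had a log2 value of 2.00 (standard error 0.206). There were 63 such junctions. They had 12, 9 and 14 reads in the 0-h mice and 34, 35 and 39 in the 4-h post-hCG mice, 108 reads at 4-h post-hCG against 35 in the 0-h controls. Within the span of Adgrv1-206 and 400 bases upstream of it, 32 of these junctions had 3, 0 and 1 reads at 0-h and 26, 32 and 33 at 4-h post-hCG. They do not join annotated exon edges in the way typed circRNA do, and what they are was not tested.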

How the results depend on the processing

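Gpr98 values kept their direction under every alternative run, except the ratios of circular to linear below. Without each mouse in turn, the log2 value of exons 84 to 85 ran from 3.35 to 3.83 (the highest without 0-h replicate 3), of exons 84 to 86 from 1.16 (without 0-h replicate 2) to 3.19 (without 0-h replicate 1), of all circular reads from 1.84 to 2.13 and of linear counts from 3.44 to 3.76. The difference in the share of exons 84 to 85 ran from 28.9 to 37.5 points. The change of the ratio ran from -0.57 to -0.15 for exons 84 to 85 and from -2.42 to -0.38 for exons 84 to 86, whose ratio lay between -1.30 (without 0-h replicate 1) and 0.71 in the 0-h group and between -1.999 and -1.43 in the later group. For exons 84 to 85 it lay between 0.74 and 1.20 and between 0.55 and 0.64. With the median junction, the linear value was 0.44. The log2 ratio depends on its scale. With reads as counted it was -1.80 at 0-h and -2.25 at 4-h post-hCG for exons 84 to 85, and -2.56 and -4.56 for exons 84 to 86. With 50 CPM it was 1.71 and 1.29 for exons 84 to 85, and with no filter 3.07 and 2.597, and 2.29 and 0.29 for exons 84 to 86. The fit held 2 Gpr98 circRNA, 4 at 50 CPM and 56 with no filter. The count of circRNA called in the whole series was 20, 7 with no filter and 10 to 19 without each mouse (10 without 0-h replicate 2, 12 without 0-h replicate 3 and 11 without 4-h post-hCG replicate 3). Of gene names by circular reads, 22 were called, 124 with junctions of any type and 11 to 17 without each mouse (11 without 0-h replicate 2 and 14 without 0-h replicate 3). Without each mouse, 1555 to 1975 were called by linear counts. With the median junction, 0 Calx-beta, 1 Usher, 1 erythrocyte and 1 theca and stroma entries were called, Celsr1 stood at -0.12, and Whrn (0.44), Fras1 (0.44) and Adcy3 (-0.45) no longer passed while Fam172a did (-0.63). For the circular lists, chosen after seeing the data, 1 entry was called and 8 with junctions of any type.

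Replicate numbers did not pair the mice: deviations of same-numbered mice correlated at -0.07 to 0.04. With the replicate number as a block, exons 84 to 85 stood at 3.51, exons 84 to 86 at 2.03, circular reads at 1.96 and linear counts at 3.60, and 18 circRNA, 23 gene names by circular reads and 1754 by linear counts were called. With the mouse as a block, the change of the ratio was -0.41 for exons 84 to 85 and -1.84 for exons 84 to 86. With a single read worth 6.13 CPM or more, most Gpr98 circRNA lie too low for a difference to be detectable at this depth.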
